A study of Homo sapiens with 6 samples.

Results

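The genes described here are 10 amino acid transporters, listed by name, with earlier results of these data known: SLC7A11, SLC3A2, SLC7A5, SLC7A1, SLC7A6, SLC1A4, SLC1A5, SLC38A1, SLC38A2 and SLC43A1. All 10 were among the 11048 genes with values in all 6 RNA sequencing libraries. The libraries came from MM1.S, a human multiple myeloma cell line, harvested after 6 h. The 3 groups were the DMSO vehicle, CCF642 (3 µM) and CCF642-34 (also 3 µM), each with 2 libraries. CCF642 and CCF642-34 are inhibitors of protein disulfide isomerases, enzymes that form and rearrange disulfide bonds in proteins of the endoplasmic reticulum, and the experiment asked how the expression changes after the compounds differ. All groups were the same line, with no genotype difference between them and DMSO, the solvent, as the control. No source used here says that the 2 libraries of a group came from separate cultures, so p values measure the spread between these libraries, which may be technical.

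Amino acids cross the plasma membrane through carriers with overlapping substrates. Some of these carriers, the exchangers, take up one amino acid against the release of another, while others accumulate amino acids with sodium and so supply the exchangers with substrate. SLC3A2 encodes the heavy chain (CD98, 4F2hc) that brings several light chains to the cell surface: with SLC7A11 it forms system xc-, which imports cystine against glutamate, with SLC7A5 it forms LAT1, which carries large neutral amino acids such as leucine, and with SLC7A6 it forms y+LAT2. Several of these genes are known targets of ATF4, the transcription factor of the amino acid and integrated stress response, and SLC7A11 is also a known target of NRF2 (NFE2L2). Plasma cells secrete large amounts of immunoglobulin, which places a high demand on amino acid supply and on disulfide bond formation.

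Promoter sequence is shown first because these are the letters to which ATF4 and NRF2 are known to bind. RefSeq windows on GRCh38.p14 ran from 250 bases before a transcript start and covered 300 bases, and 9 of the 10 genes had 1 or more, 16 windows in all; SLC7A11 had none. TGATGNAAN, the C/EBP-ATF response element to which ATF4 binds with a C/EBP partner, was searched on both strands. It was found in 5 of the 16 windows and in 3.62% of all 34943 windows. The genes were chosen by name with earlier results known, and several are known ATF4 targets. The shares of this and the other patterns thus describe these genes and are not independent evidence. Some genes also had more than 1 window. The matches are in capitals, read 5′ to 3′ along the gene, with up to 10 bases on either side.
SLC3A2, chr11:62881725-62881748, plus strand: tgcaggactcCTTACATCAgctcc
SLC1A4, chr2:64989381-64989409, plus strand: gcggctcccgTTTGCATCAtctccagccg
SLC38A1, chr12:46266502-46266530, minus strand: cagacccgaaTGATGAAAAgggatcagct
SLC7A1, chr13:29595663-29595691, minus strand: ggcgcactgcTGATGAAACctggcgccgg
SLC1A5, chr19:46784893-46784921, minus strand: aggaagtggcTGATGCAAGctgtccaggg
The matches of SLC3A2 and SLC1A4 read in the opposite direction to the gene. The SLC1A4 match began 8 bases before its start, the SLC7A1 match 7 bases after its start and the SLC1A5 match 97 bases before its start. By the GENCODE gene positions, the starts used for SLC3A2, SLC1A4, SLC38A1 and SLC1A5 here lay within the gene. The start used for SLC7A1 was the first base of the gene.

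TGACNNNGC, the core of the antioxidant response element to which NRF2 binds with a small MAF protein, was also found in 5 of the 16 windows, against 13.3% of all windows. The matches of the heavy chain and of its light chains are shown because these genes are compared with each other below.
SLC3A2, chr11:62881652-62881680, plus strand: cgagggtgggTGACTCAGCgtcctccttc
SLC7A5, chr16:87869491-87869519, minus strand: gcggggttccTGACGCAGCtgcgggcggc
SLC7A6, chr16:68264487-68264515, plus strand: cggcggcgggTGACGTGGCggggcggggc
SLC7A6, chr16:68264319-68264347, plus strand: gctcgagcccTGACGAGGCagctgggggc
The other 2 genes with this core were SLC7A1 and SLC1A5. SLC3A2 and SLC7A1 held both patterns in the same window, where the 2 matches did not overlap. In SLC1A5 the 2 patterns lay in different windows, at different starts. The cAMP response element TGACGTCA was in 0 of the 16 windows and in 1.84% of all windows. The E-box CACGTG was in windows of SLC1A5, SLC43A1 and SLC7A5 and in 7.23% of all windows. The 1 window of SLC38A2 held none of the 4 patterns. Sequence outside the windows was not searched. A match of these letters is a description of the sequence and was not measured as a binding site.

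The deposited values are CPM, a gene's reads as a proportion of all reads in its library, and all of them (100%) were whole multiples of the value of a single read. Library totals lay between 20567313 and 28459677 reads. The 3 groups were fitted together with limma on log2 of CPM after TMM scaling, which sets libraries to a common level from trimmed ratios of their genes, with 1 added, which understates the fold changes of genes with low values. A gene was called at an adjusted p under 0.05 (Benjamini-Hochberg over all 11048 genes, two-sided). With library size alone in place of TMM, the middle log2 fold change over the whole gene set moved from -0.0066 to -0.13 for CCF642 and from 0.0067 to -0.078 for CCF642-34. The split of higher and lower calls then moved from 3517 and 3457 to 2528 and 4738 genes for CCF642, and from 3285 and 3077 to 2497 and 3972 genes for CCF642-34. In the direct comparison it moved from 1760 and 1925 to 2406 and 1488 genes. Of 10 plasma cell markers 9 were listed, and their summed CPM was 9322 to 9384 with DMSO, 6585 to 6628 with CCF642 and 7382 to 7416 with CCF642-34. Single markers varied unequally over the 6 libraries. JCHAIN spanned 1792 to 4321 CPM, IRF4 657 to 1358 and SDC1 239 to 870, but XBP1 only 1311 to 1391 and PRDM1 398 to 471. Of 16 markers of other cell types, 5 were listed, with sums of 9.87 to 10.7, 18.4 to 18.4 and 13.9 to 14.0 CPM, and MS4A1, CD3D, LYZ and CD14 were among those not listed. The part of these shifts in the results was not tested, and in bulk libraries fewer cells of a type and less RNA per cell cannot be told apart.

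Of the 10 transporters, 9 rose and 1, SLC7A6, fell with each compound. Summed over the 10 genes, the CPM was 2945 and 2902 in the DMSO libraries, 6838 and 6761 with CCF642, and 6414 and 6327 with CCF642-34. Their share of all reads was thus 0.295% and 0.290% with DMSO, 0.684% and 0.676% with CCF642 and 0.641% and 0.633% with CCF642-34. Against DMSO, 63.1% of all genes were called in either direction with CCF642 and 57.6% with CCF642-34. Of all genes, 31.8% were called higher and 31.3% lower with CCF642, and 29.7% and 27.9% with CCF642-34, so a call in itself was common. An increase of at least 2-fold with an unadjusted p under 0.05 was less common: 6 of the 10 transporters met it with each compound, against 4.5% of all genes with CCF642 and 2.59% with CCF642-34. A decrease of that size was met by 0 of the 10, against 1.99% and 1.29% of all genes. Since the 10 genes were chosen with earlier results known, these counts describe them and are not independent evidence of a direction. These 6 were SLC7A11, SLC3A2, SLC7A5, SLC7A1, SLC38A2 and SLC43A1. SLC43A1 lay near the 2-fold line. Over the alternative settings its lowest log2 fold change was 0.87 with CCF642 and 0.97 with CCF642-34, both less than 2-fold. The median log2 fold change of the 10 genes was 1.19 with either compound, against -0.0066 and 0.0067 for all genes. The values of the DMSO libraries and of the treated libraries did not overlap for 10 of 10 genes, as was the case for 79.4% of all genes with CCF642 and 78.9% with CCF642-34. Both comparisons use the same DMSO libraries and are therefore given side by side.

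**Figure D1:**
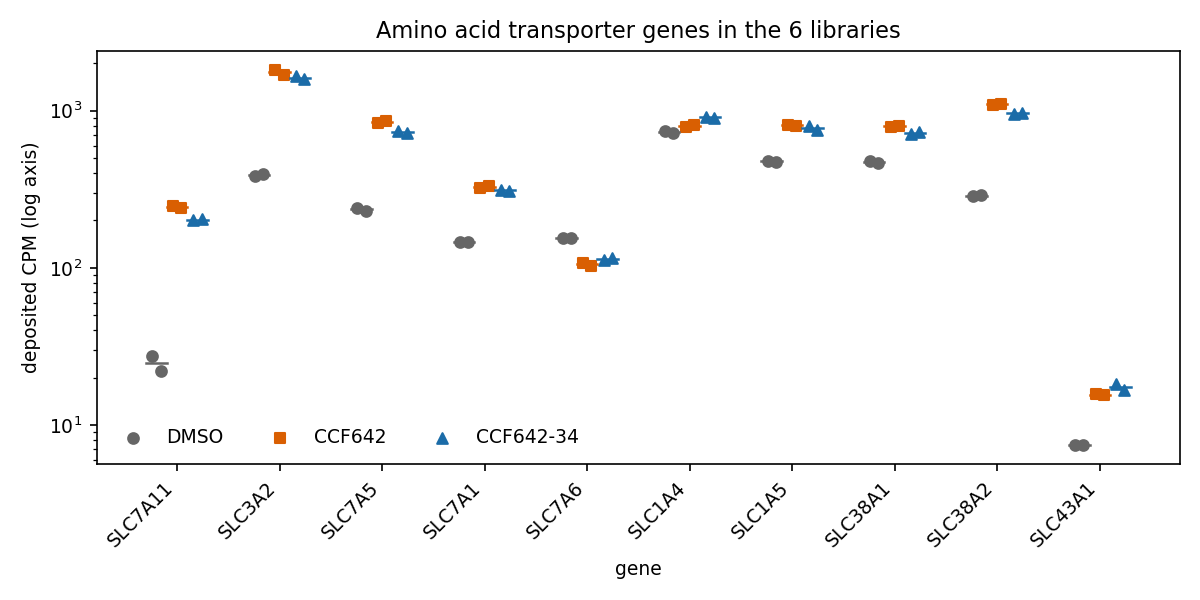
CPM of each of the 10 transporters in each of the 6 libraries, by group, on a log axis. Points are single libraries and short lines are group means, and SLC7A6 is the gene whose treated libraries lie below both DMSO libraries.

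SLC7A11, the cystine-glutamate exchanger of system xc-, had the largest fold change of the 10 genes with either compound. It was listed at 27.5 and 22.0 CPM with DMSO (633 and 470 reads), at 247 and 238 CPM with CCF642 and at 201 and 203 CPM with CCF642-34. All 4 treated libraries stood far above both DMSO libraries. The log2 fold change was 3.38 (SE 0.062, limma adjusted p = 7.87e-41) with CCF642, a 10.4-fold increase, and 3.08 (SE 0.062, limma adjusted p = 7.53e-39) with CCF642-34, an 8.44-fold increase. Counted from the highest log2 fold change of all genes, it ranked 14 with CCF642 and 11 with CCF642-34. Relative to its level, the DMSO libraries differed most for this gene among the 10, and leaving out 1 library at a time gave 3.23 to 3.54 with CCF642 and 2.92 to 3.23 with CCF642-34. In the GENCODE annotation SLC7A11 (ENSG00000151012.13) spans chr4:138164097-138242349 of GRCh38 on the minus strand.

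SLC3A2, the heavy chain shared by the exchangers, had the highest CPM of the 10 genes in every treated library. Its values were 386 and 397 CPM with DMSO, 1829 and 1694 CPM with CCF642 and 1656 and 1597 CPM with CCF642-34. The treated libraries were separated from DMSO by much more than their own spread, an SD (n = 2) of 95.4 CPM for CCF642 and 42.2 CPM for CCF642-34. The log2 fold change was 2.30 (SE 0.037, limma adjusted p = 5.55e-43) with CCF642 and 2.14 (SE 0.037, limma adjusted p = 1.80e-41) with CCF642-34, ranks 50 and 32 among all genes. SLC3A2 (ENSG00000168003.16) spans chr11:62856102-62888875 on the plus strand of GRCh38.

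SLC7A5, the LAT1 light chain that imports leucine and other large neutral amino acids, rose by nearly as much. Its libraries had 242 and 230 CPM with DMSO, 834 and 863 CPM with CCF642 and 741 and 722 CPM with CCF642-34. The order was the same as for SLC7A11 and SLC3A2, with both CCF642 libraries highest, both CCF642-34 libraries next and DMSO lowest. The log2 fold change was 1.98 (SE 0.039, limma adjusted p = 2.12e-39) with CCF642 and 1.72 (SE 0.039, limma adjusted p = 1.45e-36) with CCF642-34. Its pseudogene copy SLC7A5P1, with which reads could be shared, was listed at 1.13 to 3.11 CPM. SLC7A5 (ENSG00000103257.8) lies at chr16:87830023-87869488 on the minus strand of GRCh38.

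SLC7A6, the y+LAT2 light chain that exchanges cationic for neutral amino acids, moved the other way. It had 155 and 156 CPM with DMSO, 108 and 102 CPM with CCF642 and 113 and 116 CPM with CCF642-34. Every treated library was below both DMSO libraries. The log2 fold change was -0.43 (SE 0.051, limma adjusted p = 4.48e-10) with CCF642 and -0.35 (SE 0.051, limma adjusted p = 8.05e-08) with CCF642-34, which is 0.744 and 0.786 of the DMSO level. In the GENCODE annotation 53.0% of its exon bases are also exons of SLC7A6OS on the opposite strand, listed at 13.6 to 19.1 CPM. The counting was not stated to use strand, so reads of the 2 genes there may not have been told apart and the values of SLC7A6 are uncertain.

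To set the heavy chain beside its light chains, CPM was divided by the length of the longest coding transcript of each gene in GENCODE release 29, which gives a level per kilobase (kb). The summed level of SLC7A11, SLC7A5 and SLC7A6 was 80.7 and 77.7 CPM per kb with DMSO, 226 and 231 with CCF642 and 202 and 199 with CCF642-34. It stayed below that of SLC3A2 in every library, and the ratio of light chains to heavy chain was 0.464 and 0.435 with DMSO, 0.275 and 0.303 with CCF642 and 0.271 and 0.276 with CCF642-34. The heavy chain mRNA thus rose by more than the summed light chain mRNA, a description for which no test was run. The makeup of the light chains also shifted: SLC7A6 made up 30.4% and 31.7% of their sum with DMSO, 7.52% and 7.02% with CCF642 and 8.85% and 9.26% with CCF642-34. SLC7A11 went the other way, from 3.54% and 2.93% with DMSO to 11.3% and 10.7% with CCF642 and 10.3% and 10.6% with CCF642-34. SLC7A5 held the largest share throughout, at 66.1% and 65.3%, 81.2% and 82.3%, and 80.8% and 80.1%. The sum, the ratio and these shares all carry the uncertainty of the SLC7A6 values given above. SLC7A7, a further light chain chosen after its values were seen, was listed at 9.63 to 15.5 CPM and was not in the sum.

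**Figure D2:**
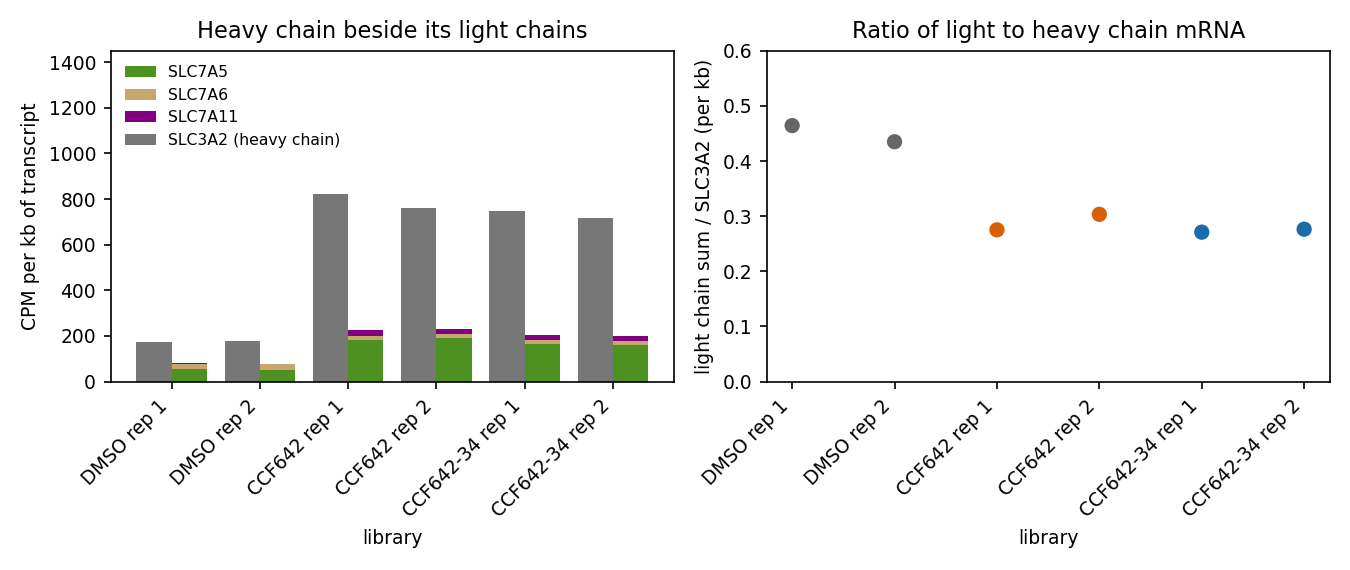
Left, CPM per kb of transcript of SLC3A2 (grey) beside the stacked light chains SLC7A5, SLC7A6 and SLC7A11 in each library. Right, the ratio of the light chain sum to SLC3A2, which is 0.464 and 0.435 with DMSO and between 0.271 and 0.303 in the 4 treated libraries.

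Among the sodium-coupled carriers, SLC38A2 (SNAT2), which accumulates alanine, glutamine and other small neutral amino acids, rose most. It had 288 and 289 CPM with DMSO, 1087 and 1106 CPM with CCF642 and 955 and 970 CPM with CCF642-34. Replicates lay close together and the 3 groups were apart. The log2 fold change was 2.06 (SE 0.037, limma adjusted p = 3.00e-41) with CCF642 and 1.82 (SE 0.037, limma adjusted p = 7.58e-39) with CCF642-34. SLC38A1 (SNAT1), its paralogue with similar substrates, had 477 and 462 CPM with DMSO, 791 and 798 CPM with CCF642 and 710 and 734 CPM with CCF642-34. Its increase was less than 2-fold, with log2 fold changes of 0.89 (limma adjusted p = 6.08e-26) and 0.71 (limma adjusted p = 8.67e-22), each with an SE of 0.037.

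The neutral amino acid exchangers SLC1A5 (ASCT2), a main route of glutamine entry, and SLC1A4 (ASCT1), which carries alanine, serine and cysteine, were already high with DMSO. SLC1A5 had 478 and 474 CPM with DMSO, 817 and 796 CPM with CCF642 and 794 and 756 CPM with CCF642-34. Its log2 fold changes were 0.89 (SE 0.037, limma adjusted p = 8.00e-26) and 0.79 (SE 0.037, limma adjusted p = 1.66e-23). Of its exon bases, 23.4% are covered by an antisense gene for which no value was listed. SLC1A4 had the smallest change of the 10 genes with CCF642. It was listed at 739 and 717 CPM with DMSO, 788 and 816 CPM with CCF642 and 913 and 902 CPM with CCF642-34, with log2 fold changes of 0.27 (SE 0.036, limma adjusted p = 8.40e-09) and 0.41 (SE 0.036, limma adjusted p = 1.67e-13). With library size alone the value for CCF642 was 0.14. SLC1A4 made up 25.1% and 24.7% of the summed CPM of the 10 genes with DMSO, 11.5% and 12.1% with CCF642 and 14.2% and 14.3% with CCF642-34, while SLC3A2 went from 13.1% and 13.7% to 26.7% and 25.1%, and to 25.8% and 25.2%.

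SLC7A1 (CAT1), the carrier of arginine and lysine, works without the heavy chain. It had 145 and 147 CPM with DMSO, 321 and 331 CPM with CCF642 and 314 and 310 CPM with CCF642-34. The log2 fold change was 1.29 (SE 0.043, limma adjusted p = 8.51e-30) with CCF642 and 1.18 (SE 0.043, limma adjusted p = 4.72e-28) with CCF642-34. SLC43A1 (LAT3), a facilitated carrier of large neutral amino acids that also needs no heavy chain, had the lowest CPM of the 10 genes. Its values were 7.44 and 7.43 CPM with DMSO, 15.7 and 15.5 CPM with CCF642 and 18.3 and 16.6 CPM with CCF642-34. With so few reads its standard error, 0.115, was the largest of the 10, and the log2 fold changes of 1.10 (limma adjusted p = 1.49e-11) and 1.21 (limma adjusted p = 1.25e-12) were still many times that error.

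**Figure D3:**
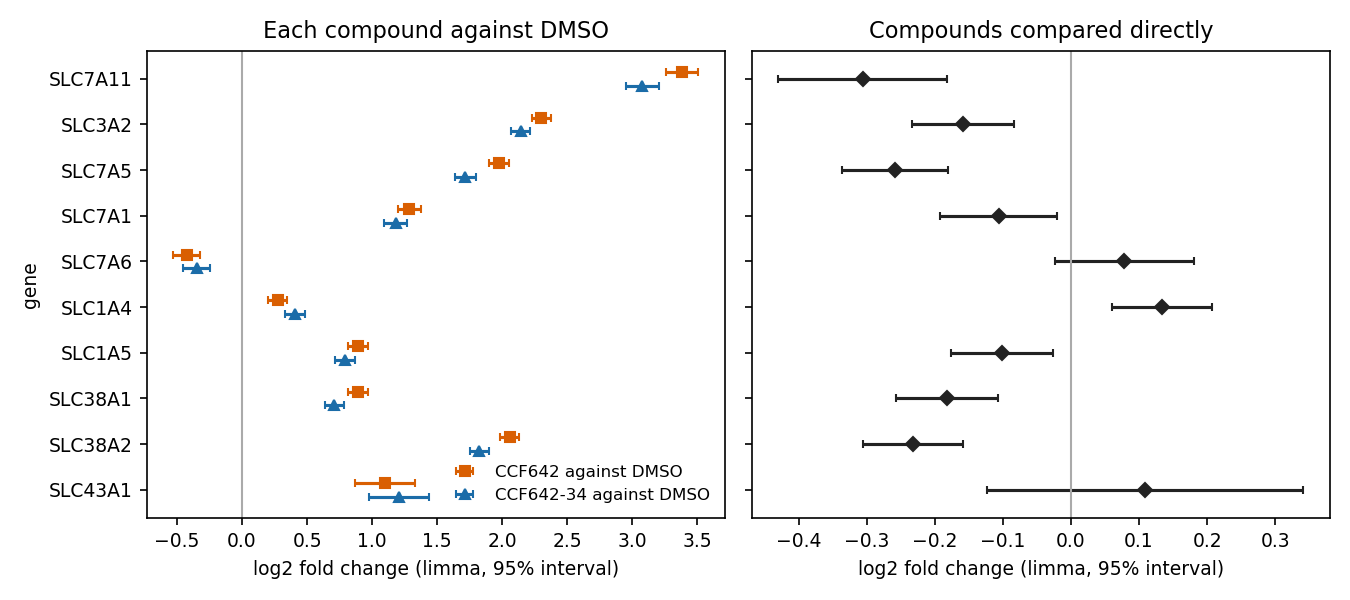
Log2 fold change of each transporter in each of the 3 comparisons, from limma on log2(CPM + 1), with 95% confidence intervals; the right panel shows CCF642-34 against CCF642, with values below 0 lower with CCF642-34. Against DMSO 9 genes lie above 0 and SLC7A6 below it, while the direct differences between the compounds lie between -0.31 and 0.13.

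Per kb of transcript, the order of the 10 genes changed between the groups. With DMSO the highest mean level was that of SLC3A2 (176 CPM per kb), followed by SLC1A5 (165), SLC1A4 (160), SLC38A2 (59.0), SLC38A1 (58.2), SLC7A5 (52.0), SLC7A6 (24.6), SLC7A1 (19.9), SLC43A1 (2.86) and SLC7A11 (2.57). The only neighbours whose libraries overlapped were SLC38A2 and SLC38A1. With CCF642 the order was SLC3A2 (793 CPM per kb), SLC1A5 (280), SLC38A2 (224), SLC7A5 (187), SLC1A4 (176), SLC38A1 (98.5), SLC7A1 (44.3), SLC7A11 (25.2), SLC7A6 (16.6) and SLC43A1 (6.00), with no overlap between neighbours. CCF642-34 gave 732 CPM per kb for SLC3A2 and 269 for SLC1A5, then 199 for SLC1A4 and 197 for SLC38A2, whose libraries overlapped, and 161 for SLC7A5. The remaining 5 genes stood in the same order as with CCF642, from 89.5 for SLC38A1 to 6.72 for SLC43A1. These levels depend on the transcript taken as the length: with the median coding transcript length, SLC1A4 (252) and SLC1A5 (244) stood above SLC3A2 (192) with DMSO, and SLC3A2 remained first with both compounds.

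CCF642-34 was then compared directly with CCF642 at the same dose and time, the only pair of compounds in the series. Of the 10 transporters, 6 were lower with CCF642-34, 1 was higher and 3 were not called. Of all genes 33.4% were called, with 17.4% lower and 15.9% higher. No difference reached 2-fold, as was the case for all but 0.299% of genes lower and 0.00905% higher. The median of the 10 log2 differences was -0.13, against 0.0093 for all genes, and the median absolute difference was 0.15 for the 10 genes as for all genes. The libraries of the compounds did not overlap for 10 of 10 transporters, as for 63.4% of all genes.

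SLC7A11 differed most, with a log2 difference of -0.31 (95% interval -0.43 to -0.18, limma adjusted p = 0.000105). SLC7A5 followed with -0.26 (-0.34 to -0.18, limma adjusted p = 6.98e-07), SLC38A2 with -0.23 (-0.31 to -0.16, limma adjusted p = 1.77e-06) and SLC38A1 with -0.18 (-0.26 to -0.11, limma adjusted p = 0.000121). These 4 genes were thus raised less by CCF642-34 than by CCF642. With a gene-wise model, which shares no variance across genes, SLC38A2 was the one gene of the 10 still called in this comparison, and the adjusted p of SLC7A11 was 0.234. SLC3A2 was lower by a log2 difference of -0.16 (-0.23 to -0.084, limma adjusted p = 0.000737), and without CCF642-34 replicate 2 its adjusted p was 0.0575. SLC1A5 was called at -0.10 (-0.18 to -0.026, limma adjusted p = 0.0317). That call rested on the settings: with library size alone the difference was -0.057 (limma adjusted p = 0.231), and without CCF642-34 replicate 2 it was -0.061 (limma adjusted p = 0.351). SLC1A4 was the gene that was higher with CCF642-34, by 0.13 (0.060 to 0.21, limma adjusted p = 0.00356), and its adjusted p was 0.0572 without CCF642-34 replicate 1. SLC7A1 lay at the threshold, with -0.11 (-0.19 to -0.020, limma adjusted p = 0.0506): the interval of this single gene leaves out 0, the adjusted p did not pass, and 8 of 18 alternatives called it, among them edgeR (adjusted p = 0.0441), DESeq2 (adjusted p = 0.0392) and limma-voom (adjusted p = 0.0340). For SLC7A6 (0.078, -0.024 to 0.18, limma adjusted p = 0.245) and SLC43A1 (0.11, -0.12 to 0.34, limma adjusted p = 0.501) no difference was detected, and these intervals give the sizes still possible.

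**Figure D4:**
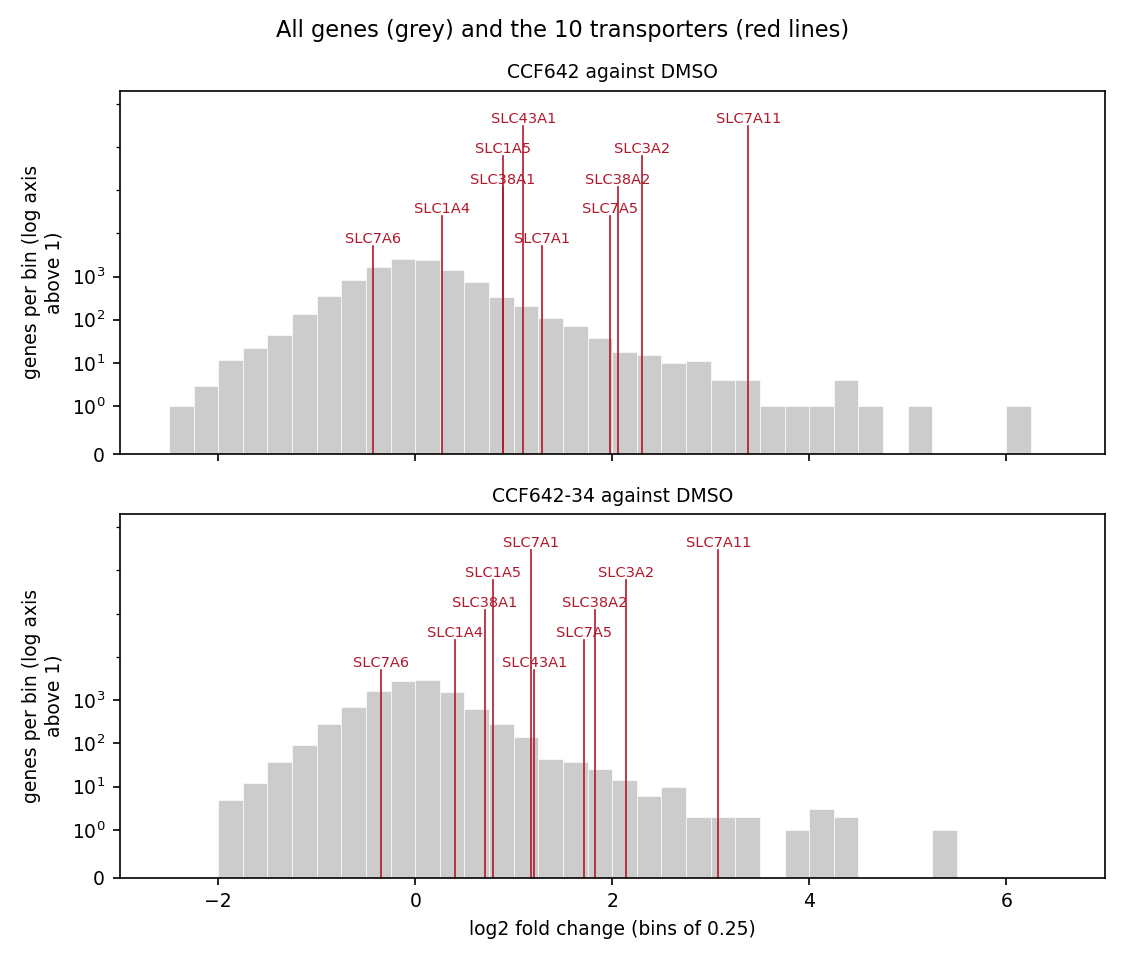
Number of genes by log2 fold change in bins of 0.25 (grey, log axis above 1 gene) for CCF642 and CCF642-34 against DMSO, with the 10 transporters as red lines whose heights only separate the labels. SLC7A11 stands at 3.38 and 3.08, SLC7A6 at -0.43 and -0.35, and all genes are centred near 0.

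Genes of the same pathways were read from the same fit, in lists written with earlier results of these data known. Of 21 other plasma membrane amino acid transporters, 9 were listed. With CCF642, 1 rose and 5 fell (median log2 fold change -0.21), where 31.8% of all genes rose and 31.3% fell. With CCF642-34, 1 rose and 4 fell (median -0.24), where 29.7% of all genes rose and 27.9% fell. Between the compounds, 2 were higher and 1 lower with CCF642-34 (15.9% and 17.4% of all genes), and 0 lower with library size alone. No difference between these 9 genes and the 10 was tested. The gene that rose was SLC6A9, the glycine transporter GlyT1, with 17.0 and 19.0 CPM with DMSO, 106 and 105 CPM with CCF642 and 117 and 118 CPM with CCF642-34, log2 fold changes of 2.62 and 2.73 (limma adjusted p = 2.57e-35 and 8.61e-36). SLC6A6, the taurine transporter, fell by 0.49 and 0.48 on the log2 scale (limma adjusted p = 1.09e-07 and 2.27e-07). SLC6A15, a neutral amino acid transporter, had log2 fold changes of -0.21 (limma adjusted p = 0.27) with CCF642 and -0.65 (limma adjusted p = 0.000781) with CCF642-34, at no more than 7.20 CPM in any library.

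Most regulators of the amino acid response and of NRF2 were called higher with both compounds. Of 17 genes, 15 rose and 1 fell with CCF642 (median log2 fold change 1.75), where 31.8% of all genes rose and 31.3% fell. With CCF642-34, 14 rose and 2 fell (median 1.54), where 29.7% of all genes rose and 27.9% fell. Between the compounds, 3 were higher and 9 lower with CCF642-34 (15.9% and 17.4% of all genes). The list joins genes that raise and genes that restrain these responses, so its counts give no direction of their activity. KEAP1, which restrains NRF2, had log2 fold changes of 0.25 with CCF642 and 0.26 with CCF642-34. BACH1, which represses NRF2 target genes, had 1.67 and 1.09. Both were named after their values were seen. ATF4 had 411 and 428 CPM with DMSO, 1101 and 1060 CPM with CCF642 and 1125 and 1103 CPM with CCF642-34, a log2 fold change of 1.50 with either compound (limma adjusted p = 2.28e-35 and 3.93e-35). DDIT3, the stress factor CHOP, rose by 3.42 and 3.32, ATF3 by 6.01 and 5.25 and TRIB3, which binds and restrains ATF4, by 4.20 and 4.33. NFE2L2, which encodes NRF2, had 78.9 and 74.8 CPM with DMSO, 190 and 199 CPM with CCF642 and 152 and 158 CPM with CCF642-34, log2 fold changes of 1.46 and 1.09 (limma adjusted p = 3.48e-29 and 7.14e-24). Between the compounds NFE2L2 differed by -0.37 (limma adjusted p = 1.02e-07). The direct difference of ATF4 was 0.00068 (95% interval -0.073 to 0.075, limma adjusted p = 0.991). MYC, which promotes growth and is known to raise several of these transporters, fell by 2.04 on the log2 scale with CCF642 and by 1.25 with CCF642-34. The direct difference of MYC was 0.79 (limma adjusted p = 1.77e-19) and that of ATF3 was -0.76 (limma adjusted p = 2.74e-20). ATF5 fell with CCF642-34 by 0.25 on the log2 scale (limma adjusted p = 0.0298) and had 0.15 (limma adjusted p = 0.179) with CCF642.

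Most genes in a list on cystine, which enters through system xc-, on cysteine synthesis and on glutathione were also called higher. Of 13 genes, 10 rose and 1 fell with each compound, with medians of 0.63 with CCF642 and 0.51 with CCF642-34. The shares of all genes that rose and fell were 31.8% and 31.3% with CCF642, and 29.7% and 27.9% with CCF642-34. In the direct comparison 3 of the 13 were higher and 4 lower with CCF642-34, against 15.9% and 17.4% of all genes. CHAC1, which degrades glutathione and is a known ATF4 target, rose from 4.18 and 6.77 CPM with DMSO to 123 and 120 CPM with CCF642 and 100.0 and 97.7 CPM with CCF642-34, log2 fold changes of 4.40 and 4.05. CTH, which makes cysteine from cystathionine, rose by 3.12 and 2.74. LANCL1, a glutathione-binding protein, fell by 0.61 and 0.28 on the log2 scale (limma adjusted p = 1.92e-10 and 0.00078).

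**Figure D5:**
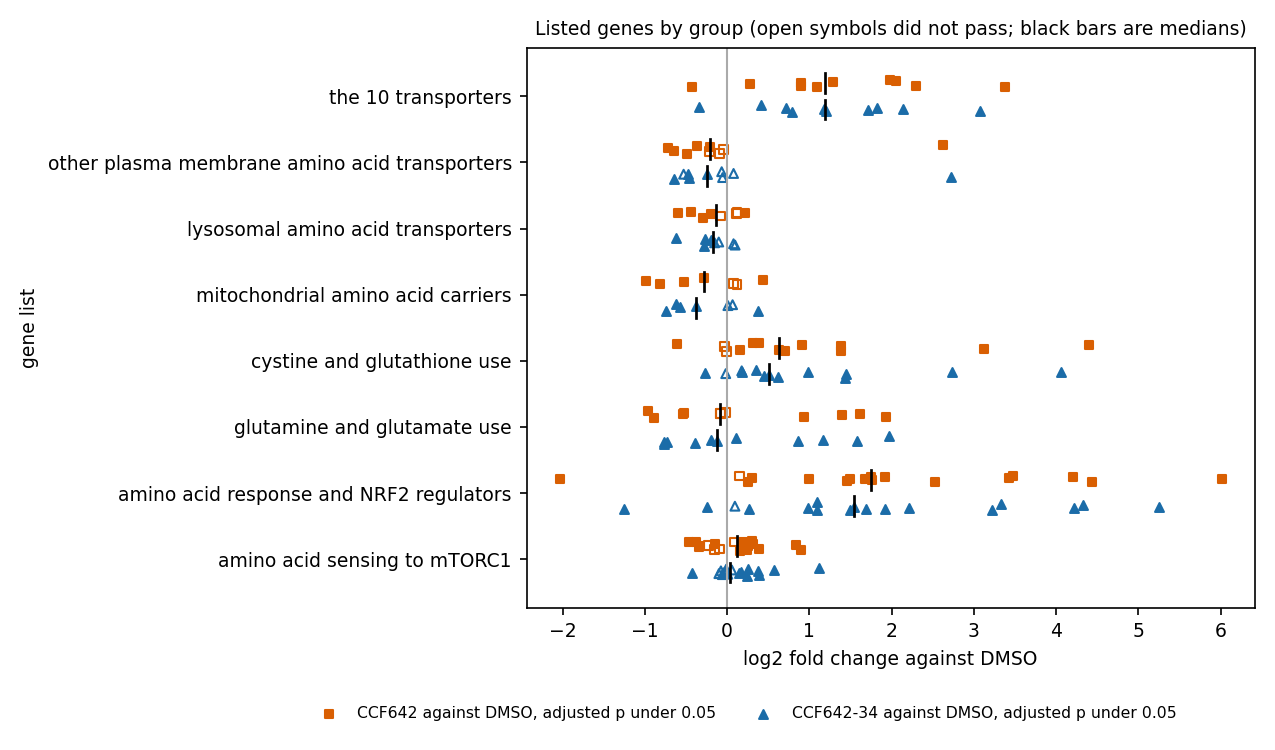
Log2 fold change against DMSO of every listed gene of the 10 transporters and of 7 other lists, for CCF642 (squares) and CCF642-34 (triangles). Filled symbols had an adjusted p under 0.05, open symbols did not, and black bars are medians; the transporters (1.19 and 1.19) and the regulators (1.75 and 1.54) have the highest medians.

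The genes whose profile was nearest to a transporter were found by the Euclidean distance of log2 values over the 6 libraries, each centred on its DMSO mean. Nearest to SLC7A11 were CEBPB (distance 0.286), which encodes a C/EBP transcription factor, DDIT3 (0.432) and CTH (0.643). SLC3A2 was nearest to CD55 (0.287), a complement regulator, KLF2 (0.306), a transcription factor, and MAFF (0.338), a small MAF protein. SLC7A5 was nearest to RNF122 (0.134), a ubiquitin ligase, ZNF222 (0.172), a zinc finger gene, and GABARAPL1 (0.202), an autophagy gene. ZNF222 had only 1.65 and 1.64 CPM with DMSO. With 3 groups of 2 libraries, such a distance mainly compares the sizes of the changes with each compound.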

How the data were processed

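RNA of MM1.S cells was purified with the NucleoSpin kit, enriched for mRNA with oligo(dT) and made into cDNA with random hexamers. The submitters' processing notes name STAR, edgeR 3.24.3, limma 3.38.3 and hg19, without role or order; the counting tool and annotation are not given in the sources used here. The authors deposited CPM values for 11048 gene symbols in each library. They hold 99.9% of the reads, and every gene reaches 1.50 CPM in at least 1 library. The joint table of all libraries, identical in its values, was not used.

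Reads were recovered from the steps of the CPM values (tolerance 0.01 read) and used only in alternatives. Total reads were 22989979 and 21403137 (DMSO), 20567313 and 22594137 (CCF642), and 28459677 and 27797578 (CCF642-34). CPM were scaled by TMM (edgeR 4.0.16), 1 was added, and log2 values were fitted with limma 3.58.1 (trended variance, R 4.3.3), without a replicate block, with 3 residual and 42.9 prior degrees of freedom. The script was tested on simulated data. Alternatives were other scalings, pseudocounts and filters, edgeR, DESeq2 1.42.0 and limma-voom on recovered reads, a gene-wise model, 2-group fits, a replicate block, a 2-fold criterion and fits without each library.

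The transporters and lists were chosen with earlier results of these data known. Named genes were the 10 transporters; per list, the 2 largest increases and 2 largest decreases with CCF642-34 among called genes; ATF4, DDIT3 and NFE2L2; and the 3 nearest profiles of SLC7A11, SLC3A2 and SLC7A5. SLC7A7, KEAP1 and BACH1 were named after their values were seen. Transcript lengths and gene positions came from GENCODE release 29 on GRCh38.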

Additional observations from a re-analysis of the deposited data

How the results depend on the processing

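Against DMSO, the direction and the call of the 10 transporters were kept in 180 of 180 values (10 genes under 18 alternatives) with each compound. In the direct comparison 158 of 180 kept both, 14 lost the call, 8 gained it and 0 reversed. The count of transporters lower than DMSO became 0 with each compound under the 2-fold criterion, which SLC7A6 does not meet. In the direct comparison the counts higher and lower were 0 and 1 with the gene-wise model, where SLC38A2 kept its call, and 0 and 0 under the 2-fold criterion. Leaving out 1 library gave 0 to 1 higher and 4 to 6 lower: without CCF642-34 replicate 1 the count higher was 0, and without CCF642-34 replicate 2 the count lower was 4. SLC7A1 was called in the direct comparison under 8 alternatives, among them the fit without CCF642 replicate 1 (limma adjusted p = 0.0230), and SLC1A5 lost its call under 7, among them the fits of only the 2 groups (limma adjusted p = 0.0725) and without DMSO replicate 1 (0.0674), DMSO replicate 2 (0.0671) or CCF642 replicate 1 (0.0741). The cause of these moves was not tested. Over all genes, the gene-wise model called 242 higher and 497 lower in the direct comparison, against 1760 and 1925, and without CCF642-34 replicate 1 or 2 the counts were 1044 and 1426 or 1168 and 1402. With a replicate block the counts of transporters stayed 9 and 1, 9 and 1, and 1 and 6. Replicates with the same number did not deviate together (correlations across genes of -0.0089, -0.056 and 0.047). These correlations cannot show whether such replicates shared a culture or a run. Having 2 libraries per group and small direct differences limited precision, and SLC43A1, at 159 to 520 reads, was measured least precisely.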

Other observations

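Transporters inside the cell were read from the same fit, in which 31.8% of all genes rose and 31.3% fell with CCF642, and 29.7% rose and 27.9% fell with CCF642-34. No difference between these lists and the 10 genes above, or all genes, was tested. Of 12 symbols of lysosomal amino acid transporters 8 were listed; 1 rose and 4 fell with CCF642 (median log2 fold change -0.14), and 0 rose and 4 fell with CCF642-34 (median -0.17), while with library size alone 0 rose with CCF642. SLC36A1, which exports small amino acids from the lysosome, fell by 0.60 and 0.63 on the log2 scale (limma adjusted p = 2.32e-05 and 1.33e-05), and SLC38A7, a lysosomal glutamine exporter, by 0.29 and 0.28. Of 11 mitochondrial carriers 7 were listed, and with each compound 1 rose and 4 fell (medians -0.28 and -0.38). SFXN1, the mitochondrial serine carrier, fell from 143 and 143 CPM with DMSO to 71.5 and 76.1 CPM with CCF642 and 77.9 and 82.5 CPM with CCF642-34 (limma adjusted p = 1.13e-17 and 5.00e-16). SLC25A22, a glutamate carrier, fell by 0.53 and 0.62 on the log2 scale, and SLC25A38, a glycine carrier, rose by 0.43 and 0.37.

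The 11 genes of glutamine and glutamate use were divided. For this list and the next, 31.8% of all genes rose and 31.3% fell with CCF642. With CCF642-34 these shares were 29.7% and 27.9%. With CCF642, 4 of the 11 genes rose and 4 fell (7 fell with library size alone), and with CCF642-34, 5 rose and 6 fell. ASNS, asparagine synthetase, had 91.6 and 93.2 CPM with DMSO, 264 and 258 CPM with CCF642 and 260 and 265 CPM with CCF642-34, log2 fold changes of 1.62 and 1.58 (limma adjusted p = 5.37e-33 and 2.40e-32). GPT2, which makes alanine from glutamate, rose by 1.93 and 1.97. CAD, which begins pyrimidine synthesis from glutamine, fell by 0.89 and 0.77 on the log2 scale, and ALDH18A1, which begins proline synthesis from glutamate, by 0.52 and 0.77. Of 23 symbols of amino acid sensing to mTORC1 18 were listed; 9 rose and 5 fell with CCF642 and 8 rose and 1 fell with CCF642-34, but with library size alone these were 5 and 8, and 5 and 3. TFEB, the regulator of lysosomal genes, rose by 0.89 and 1.11, FNIP1, a folliculin partner, by 0.84 and 0.57, and DEPDC5, of the GATOR1 complex, fell by 0.46 and 0.43 on the log2 scale.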
